A study of Mus musculus with 3 samples.

Results

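The 8 genes described here are markers of tubular injury: Havcr1, Lcn2, Spp1, Clu, Vim, Timp1, Krt8 and Krt18. They were taken by symbol from a gene table of 31058 rows, and all 8 had a row. UMIs (molecular identifiers, each counting 1 captured mRNA molecule) were summed over the cells of each marker-defined class in each library. The cells came from glomeruli, the filters of the kidney, of 3 healthy C57Bl/6 mice: a male, a female and a female with ERalphaKO (labelled RPC-ERαKO, here female ERaKO). The alleles Pax2.rtTA, TetO.Cre and R26.Confetti are in all 3 animals, controls included, and each was given doxycycline when 20 days old and studied at 90 days. The Pax2 promoter drives the doxycycline-dependent activator, so Cre acts only in cells with that promoter active during dosing, and Confetti marks those cells and their descendants. Each group is 1 mouse and 1 library, so no difference between groups could be tested, no p-value is given, and every interval covers counting error only.

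When tubule epithelium is damaged, surviving cells lose transport functions and switch on genes of adhesion, secretion and cytoskeleton. Havcr1 encodes KIM-1, a receptor for dying cells that appears on injured proximal tubule, and Lcn2 encodes NGAL, an iron-siderophore carrier secreted by injured tubule. Spp1 (osteopontin) and Clu (clusterin) are secreted proteins, Timp1 inhibits matrix proteases, Vim is the mesenchymal intermediate filament, and Krt8 and Krt18 pair to form the filament of simple epithelia. Parietal epithelial cells line the capsule around the glomerulus and continue into the proximal tubule.

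After filtering, 8539 cells were kept, with median depths of 7325.0 UMIs in the male, 8857.0 in the female and 8039.0 in the female ERaKO library. Pairs of libraries shared 4 to 8 barcodes. Proximal tubule cells numbered 147, 96 and 193 and parietal epithelial cells 128, 82 and 246, in the order male, female, female ERaKO, which is kept below. Classes were named by their marker lists, so the levels of these markers describe the classes and do not check the names. The 11 proximal tubule markers summed to 15080, 14310 and 13820 UMIs per 1000000 UMIs of the class (CPM) in the proximal tubule class. In the parietal class they summed to 536.9, 683.4 and 647.1 CPM. The 7 parietal markers summed to 2901, 2323 and 2679 CPM in parietal cells and 327.6, 163.4 and 162.4 in proximal tubule cells. Xist and Ddx3y levels matched the labelled sex in every library. Esr1, the gene of oestrogen receptor alpha, had 84, 73 and 122 UMIs in all kept cells and 13, 8 and 67 in proximal tubule cells. The deleted part of the gene is not given in the sources used here, and a 3′ tag outside it checks nothing, so these counts do not check the knockout, and the library is called by its label.

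Krt8 and Krt18 are neighbours on chromosome 15 of GRCm38, at chr15:101996698-102004482 on the minus strand and chr15:102028180-102032027 on the plus strand, 23697 bases apart. Their upstream sequences are shown because the pair was higher together in parietal cells, as described below. RefSeq promoter windows on GRCm38.p6 were found for 7 of the 8 members, Clu being the one without. The 250 bases before each RefSeq start follow, 5′ to 3′, Krt8 from chr15:102004343-102004592 (minus strand) and Krt18 from chr15:102027966-102028215 (plus strand), with the parts of motif matches in capitals.
Krt8: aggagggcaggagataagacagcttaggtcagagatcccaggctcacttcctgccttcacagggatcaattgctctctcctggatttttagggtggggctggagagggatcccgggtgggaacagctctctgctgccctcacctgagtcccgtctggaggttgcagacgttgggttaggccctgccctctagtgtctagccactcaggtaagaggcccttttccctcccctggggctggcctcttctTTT
Krt18: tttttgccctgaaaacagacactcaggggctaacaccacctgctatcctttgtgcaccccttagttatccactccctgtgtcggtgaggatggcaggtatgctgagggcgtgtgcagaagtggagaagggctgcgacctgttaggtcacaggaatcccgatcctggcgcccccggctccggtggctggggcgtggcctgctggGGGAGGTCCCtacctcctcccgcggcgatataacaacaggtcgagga
Each motif was searched on both strands of the 300-base windows, which include 50 bases past the start, and its share was taken over 32851 windows. TATAAA was found in 13.6% of windows, GGGCGG in 35.7%, TGANTCA in 7.81% and TGACGTCA in 1.79%. The NF-kB motif was found in 8.46%. In Krt8 a TATAAA match began at the last base before the start and overlapped a match on the other strand, of which the first 3 bases are the capitals above. The capitals in Krt18 are an NF-kB match on both strands, 47 bases before the start. No other match lay in either window, which says only that these letters are not there.

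Spp1 and Clu, both secreted, were highest in parietal cells among the 7 classes with at least 30 cells in each library. Spp1 (chromosome 5) stood at 3546, 5459 and 3609 CPM in parietal cells and 584.9, 945.9 and 698.8 in proximal tubule cells. The 5 remaining classes lay between 22.1 and 68.3 CPM, with a Spp1 UMI in 8.81% to 15.4% of their cells after each cell was thinned to 4000 UMIs. That level, seen in podocytes and endothelium alike, is taken as background. Thinned in the same way, a Spp1 UMI was found in 96.9%, 100% and 99.2% of parietal cells (98.4%, 100% and 99.6% unthinned), so nearly every parietal cell carried it. Clu (chromosome 14) reached 404.1, 448.8 and 479.6 CPM in parietal cells, against 142.5 to 173.1 in smooth muscle and renin cells, whose range overlapped that of endothelial cells (80.2 to 150.9). Proximal tubule cells had 83.8, 10.4 and 13.0 CPM, of which both female values were close to the podocyte range of 8.36 to 10.1. Among classes too small to compare, distal convoluted tubule cells had 223, 41 and 164 Clu counts on 249958, 40023 and 151779 UMIs. That is more per UMI than in parietal cells of each library. In the female library 34 intercalated cells held 46.1% of kept Clu UMIs, against 12.1% in parietal cells. Thick limb cells had more Spp1 per UMI than parietal cells in both female libraries, but not in the male.

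Vim, the mesenchymal filament, was highest outside the parietal and tubule cells. It was at 1624 to 2209 CPM in mononuclear phagocytes, a range that overlapped the 1386 to 1731 CPM of podocytes. Endothelial cells (1145 to 1374 CPM) overlapped smooth muscle and renin cells (762.2 to 1175), and mesangial cells had 611.5 to 745.4. It was at 416.2, 582.0 and 526.2 CPM in parietal cells. In proximal tubule cells it was lowest, at 15.3, 13.0 and 16.1 CPM.

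The keratin pair was found in parietal and tubule cells and was near 0 in podocytes. Krt8 stood at 315.7, 136.5 and 277.6 CPM in parietal cells and 410.2, 160.3 and 206.9 in proximal tubule cells, ranges that overlap. The 5 remaining classes had at most 5.26 CPM. Krt18 was at 178.4, 58.9 and 102.7 CPM in parietal cells and 82.6, 8.85 and 7.12 in proximal tubule cells, lower in both female libraries' tubule cells than in any parietal sum. Among classes too small to compare, 23 male urothelial cells had the pair at 1316 (Krt8) and 2342 (Krt18) CPM, and 53, 28 and 39 principal cells had Krt18 at 399.1, 475.5 and 638.5 CPM. In all, urothelial cells held 43.0% of the Krt18 UMIs of kept male cells.

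**Figure D1:**
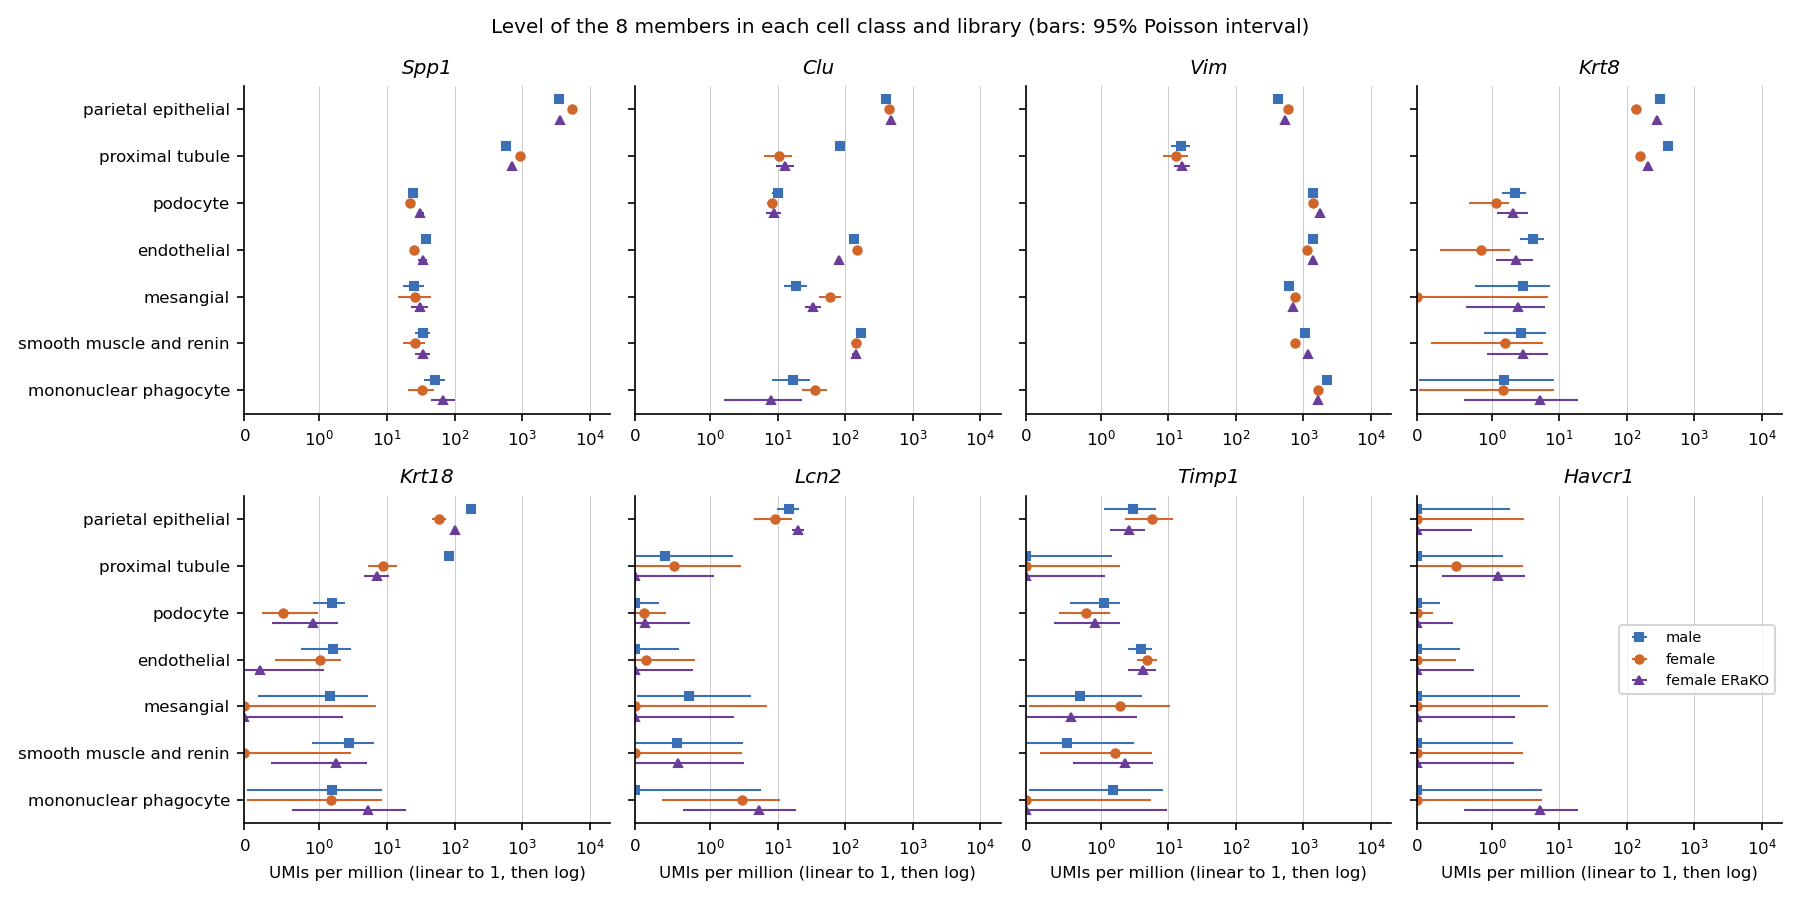
CPM (linear from 0 to 1, then log scale) of each member in 7 cell classes, 1 point per library with its 95% Poisson interval. Spp1, Clu, Krt8, Krt18 and Lcn2 have their highest points in parietal or proximal tubule cells, Vim is lowest in proximal tubule cells (13.0 to 16.1 CPM), and Havcr1 is at 0 in most sums.

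Havcr1, the best-known proximal tubule injury marker, was nearly absent. Over all kept cells it had 0, 3 and 7 UMIs, of which 0, 1 and 4 were in proximal tubule cells and none in parietal cells. With no UMI in 147 male proximal tubule cells, a count of 0 allows a share of up to 2.04% of cells with a UMI by the limit of 3 counts and 2.48% by the exact interval, which limits detection at this depth and not expression. Timp1 had no UMI in proximal tubule cells of any library and 6, 7 and 13 in parietal cells, where 57.1% of the female counts came from 1 cell. Its level in parietal cells (2.60 to 5.72 CPM) overlapped that of endothelial cells (3.92 to 4.89 CPM). Lcn2 was found in collecting duct and parietal cells. It had 1, 1 and 0 UMIs in proximal tubule cells, 29, 11 and 101 in parietal cells (14.6, 8.99 and 20.2 CPM) and 67.5, 251.0 and 93.1 CPM in principal cells, the water-reabsorbing cells of the collecting duct.

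The first comparison asked how male and female proximal tubule cells differed. A gene counted as higher or lower when it had at least 20 summed counts and a 1.5-fold ratio, computed with 1 CPM added. Of the 8 members, 5 had enough counts. Krt18, Clu and Krt8 were higher in the male library (log2 ratios 3.09, 95% interval 2.51 to 4.03, then 2.89, 2.35 to 3.75, and 1.35, 1.17 to 1.54). Spp1 was lower (-0.69, -0.79 to -0.59). Vim was not past the fold (0.22, -0.52 to 1.02), but 1 cell held 44.0% of its 25 female counts. Without the top cell of each library its ratio was 0.75, past the fold, on 33 and 14 counts. Of 9960 genes with enough counts, 24.8% were at least 1.5-fold higher and 8.12% lower, with a median log2 ratio of 0.25. TMM scaling removed that shift of the median, to 0.01, and gave 13.7% higher and 14.0% lower, so that 49.5% in place of 75.3% of the called genes were higher. The members' median was 1.35.

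Much of this difference sat in a small number of male cells. Cluster 11c, with proximal tubule markers and 24, 5 and 9 cells, held 90.5% of the male class's Krt18 counts, 85.9% of its Clu counts and 75.7% of its Krt8 counts. In those 24 male cells Krt8 was at 1030 CPM, against 171.5 in the 5 female and 215.2 in the 9 female ERaKO cells. Krt18 was at 247.7, 41.6 and 49.96 CPM and Clu at 238.6, 62.4 and 49.96 CPM, while Spp1 was lower in the male cells, at 996.1 against 4621 and 4608 CPM. Sox9, a transcription factor of repairing tubule, had 143 of the male class's 144 UMIs in the same cells. It was not particular to them, with 90, 62 and 166 UMIs in parietal cells. Without cluster 11c, the log2 ratios were 0.98 for Krt18, 1.67 for Clu, -0.16 for Krt8 and -0.40 for Spp1, so Krt8 turned direction and Spp1 was no longer past the fold. Krt18 and Clu stayed past it, on 20 male against 9 female counts and 30 against 8. The 24 male cells were deep, with a median of 30627.5 UMIs, and their 7 parietal markers, each above 3 counts, summed to 676.7 CPM, against 332.7 and 468.9 in the female and female ERaKO cells of the cluster and 164.8 in male cluster 15, where Aldh1a2 was at 0. The part of depth and of parietal RNA in these values was not tested. When each library was clustered by itself, the 24 cells were left unnamed, and the log2 ratios were -0.79 for Krt18, -0.50 for Clu and -1.05 for Krt8.

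The remaining clusters did not match between the sexes. Most male cells were in cluster 15 (99 of 147), most female cells in clusters 16 and 22 (40 and 43 of 96), and no proximal tubule cluster had 10 cells in each library. Male cells of cluster 15 had Spp1 at 38.1 CPM, within the background range, and Krt8 at 121.3 CPM. Female cells of cluster 22 had Spp1 at 1062 and those of cluster 16 at 56.6 CPM, with Krt8 at 139.4 and 184.0. Median mitochondrial shares were 9.51%, 16.2% and 13.0% in the class, and their part in the difference was not tested.

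**Figure D2:**
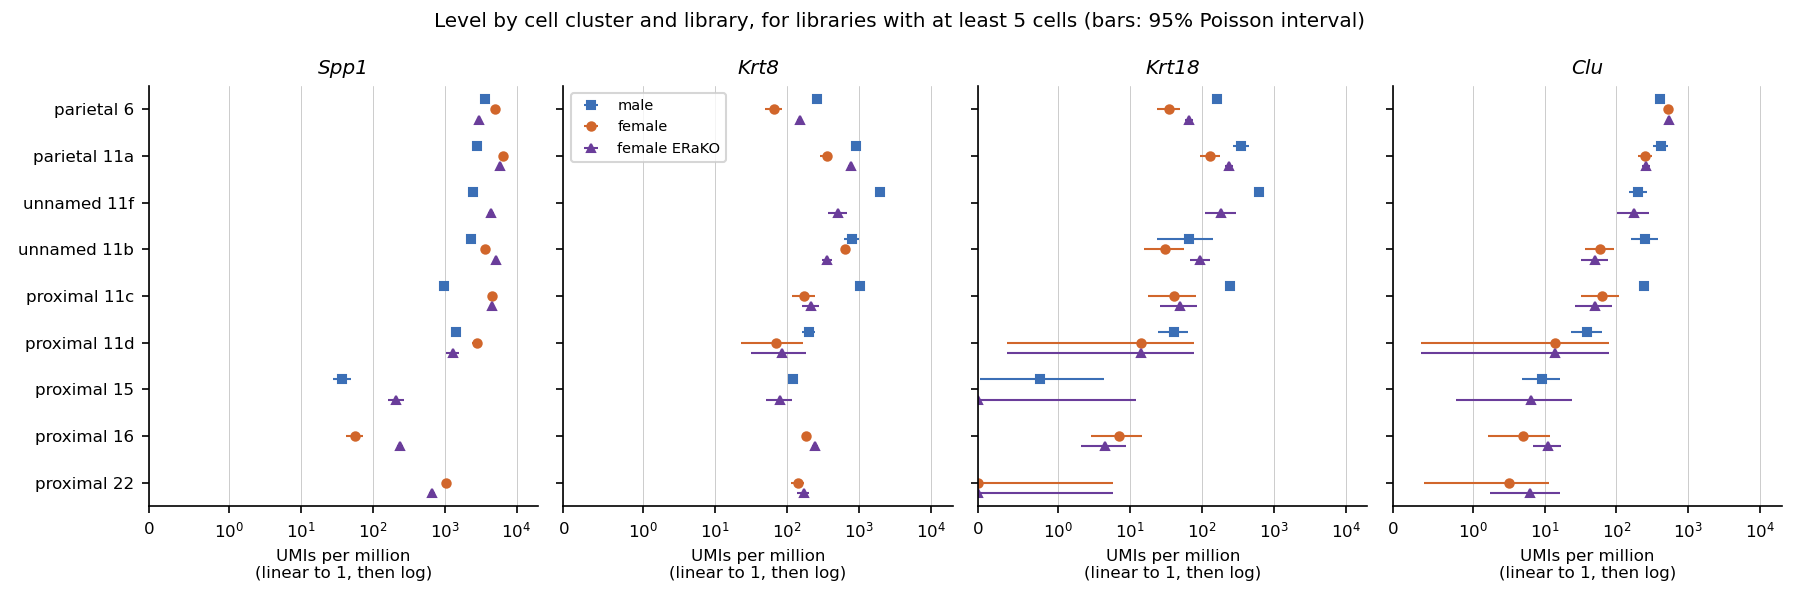
CPM of Spp1, Krt8, Krt18 and Clu (linear from 0 to 1, then log scale) in parietal, unnamed intermediate and proximal tubule clusters, for libraries with at least 5 cells, with 95% Poisson intervals. The male cells of cluster 11c stand above the other libraries for Krt8, Krt18 and Clu and below them for Spp1.

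Female ERaKO proximal tubule cells were compared with female cells, the same female library as above, so the contrasts share it. None of the 5 members with enough counts was past the fold in either direction, where 7.71% of 9817 genes were higher and 10.3% lower. Spp1 was at 698.8 against 945.9 CPM (log2 ratio -0.44, -0.53 to -0.35). The 9 and 5 cells of cluster 11c held 53.1% and 48.9% of those Spp1 counts, and without it the levels were 356.6 and 537.1 CPM (-0.59, past the fold). Clu was then past it as well (0.94). Krt8 was at 206.9 against 160.3 CPM (0.37, 0.17 to 0.57). Clu, Vim and Krt18 had intervals that included 0. Without the top cell of each library Vim was at 0.82, past the fold, on 44 and 14 counts. The clusters did not move together. In cluster 16 (85 and 40 cells) Spp1 was at 242.8 against 56.6 CPM (2.08, 1.70 to 2.53), and in cluster 22 (55 and 43 cells) at 673.5 against 1062 CPM (-0.66, -0.84 to -0.48). The share of thinned cells with a Spp1 UMI was 41.2% (30.6% to 52.4%) against 25% (12.7% to 41.2%) in cluster 16, intervals that overlap. The shares were 83.6% (71.2% to 92.2%) against 97.7% (87.7% to 99.9%) in cluster 22. Krt8 was not past the fold in cluster 16 (0.40) or cluster 22 (0.27). Of all genes, 17.3% were higher and 7.28% lower in cluster 16, and 12.5% and 12.3% in cluster 22. The knockout label was used as given in these directions, and whether the clusters differ was not tested.

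In parietal cells the keratins were higher in the male library than in the female and Spp1 was lower. Of 6 members with enough counts, 3 were higher and 1 lower, where 10.3% of 10370 genes were higher and 5.41% lower. Krt18 had a log2 ratio of 1.58 (1.23 to 1.99), Krt8 of 1.2 (0.96 to 1.46) and Spp1 of -0.62 (-0.67 to -0.57), just past the fold. Lcn2 was past the fold (0.64) on 29 and 11 counts, with an interval from -0.35 to 1.85. Vim (-0.48, -0.63 to -0.34) and Clu (-0.15, -0.31 to 0.01) were not past the fold. The members' median was 0.24 and that of all genes 0.08, and TMM scaling brought the higher share of called genes from 65.6% to 54.2%. Krt8 and Krt18 were past the fold in 15 of 16 alternative analyses and fell short with libraries clustered separately (0.53 and 0.47). Spp1 was past it in 10 of 16, with values from -0.85 to -0.29.

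The library labelled female ERaKO was past the fold in 5 members, in a comparison that shares the female library. Krt8 was at 277.6 against 136.5 CPM (1.02, 0.79 to 1.26), Krt18 at 102.7 against 58.9 (0.79, 0.44 to 1.18), Lcn2 at 20.2 against 8.99 (1.09, 0.27 to 2.22) and Spp1 at 3609 against 5459 (-0.60, -0.64 to -0.56). Timp1 was also lower, at -0.90 (-2.57 to 0.43) on 13 and 7 counts, or -0.20 without the top cell of each library. So 3 of 7 members with enough counts were higher and 2 lower, where 9.17% of 11475 genes were higher and 6.62% lower. The members' median was 0.10 and that of all genes 0.04. Clu (0.10) and Vim (-0.15) stayed within the fold. Krt8 was past the fold in 16 of 16 alternatives, Krt18 in 15 and Spp1 in 12, whose values ran from -0.76 to -0.21 over all 16.

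**Figure D3:**
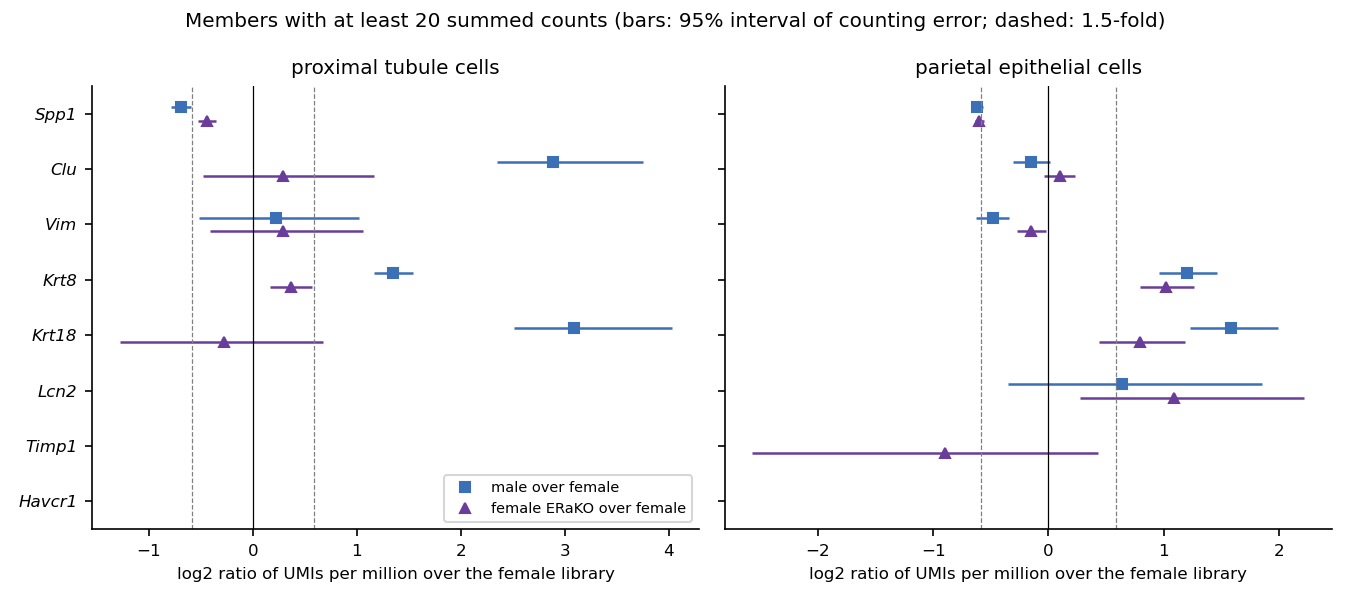
Log2 ratio of each member over the female library for proximal tubule and parietal epithelial cells, with 95% intervals of counting error and dashed lines at 1.5-fold, for members with at least 20 summed counts. Krt8 and Krt18 lie above 0 in parietal cells in both contrasts and Spp1 below 0 in every panel.

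The parietal class joined 2 clusters, and the keratin difference was present in the larger one. Cluster 6 had 118, 74 and 201 cells and cluster 11a had 10, 8 and 45. In cluster 6 Krt8 was at 262.1, 65.3 and 149.2 CPM and Krt18 at 162.3, 34.8 and 66.9, with log2 ratios over the female library of 1.99 and 2.19 (male) and 1.18 and 0.92 (female ERaKO). Spp1 was at 3610, 5101 and 3004 CPM there, a ratio of -0.50 in the male library, within the fold, and of -0.76 in the female ERaKO library. Vim was at 450.8, 733.5 and 637.8 CPM, and past the fold in the male library there (-0.70, -0.85 to -0.55) though not over the class. However, 1 cell held 19.5% of the female class's Vim counts. Without the top cell of each library the class ratio was -0.25, and the cluster 6 ratio was not computed without it. Lcn2 was at 9.32, 8.71 and 18.0 CPM, a ratio of 0.09 (-1.19 to 1.52) in the male library and 0.97 (-0.01 to 2.31) in the female ERaKO library. In cluster 6, 13.1% of genes were higher and 5.2% lower in the male library. For the female ERaKO library these shares were 12.6% and 6.58%. Cluster 11a had more keratin in each library, with Krt8 at 904.1, 351.5 and 761.3 CPM. Its cells carried proximal tubule markers at 2049, 1856 and 1321 CPM and parietal markers at 1627, 1665 and 1457 CPM. It held 23.9%, 64.1% and 57.5% of the class's Krt8 counts and 16.6%, 55.6% and 48.5% of its Krt18 counts.

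Few cells carried much of the keratin signal. In the parietal class, 1 cell held 16.6%, 26.95% and 10.1% of the Krt8 counts. After thinning, a Krt8 UMI was found in 32.0% (24.1% to 40.9%), 18.3% (10.6% to 28.4%) and 40.2% (34.1% to 46.7%) of parietal cells, against 47.7%, 30.5% and 58.1% unthinned. In the 5 remaining classes at most 1.95% of thinned cells had one. The male and female intervals overlap, and the female ERaKO interval lies above the female one. Krt18 UMIs were found in 20.3% (13.7% to 28.3%), 9.76% (4.31% to 18.3%) and 26.0% (20.7% to 32.0%) of thinned cells. The median Spp1 level per cell was 33.98, 33.47 and 28.15 UMIs per 10000, so the male and female medians were closer than their sums.

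Over the parietal class Krt18 was found more often beside Krt8 than without it. Of cells with a Krt8 UMI, 46.3%, 26.7% and 48.5% had a Krt18 UMI, against 8.05%, 5.97% and 10.9% of cells without one. Over the class Vim was less frequent beside Krt8, with a UMI in 48.8%, 40% and 54.5% of Krt8-positive cells and 74.7%, 74.6% and 78.9% of Krt8-negative ones. The exact intervals overlap for Krt18 in the female library, which had 15 Krt8-positive cells, and for Vim in the male and female libraries. The clusters differ in these genes: in cluster 11a Krt8 was found in 100%, 62.5% and 86.7% of thinned cells, and Vim in 0 of 5 and 11 of 39 Krt8-positive cells of the female and female ERaKO libraries. Krt18 was there in 2 of 5 Krt8-positive and 0 of 3 Krt8-negative female cells. In the female ERaKO library the direction was the other one, with 21 of 39 against 4 of 6, and intervals overlap in both. In cluster 6 alone, Krt18 was in 41.9%, 20% and 45% of Krt8-positive and 8.05%, 6.25% and 8.51% of Krt8-negative cells. Vim was there in 64.5%, 60% and 71.7% against 74.7%, 78.1% and 81.6%, with intervals that overlap in every library. Cells with UMIs of at least 4 members made up 21.9%, 18.3% and 27.6% of parietal cells and 4.08%, 0% and 0.518% of proximal tubule cells.

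**Figure D4:**
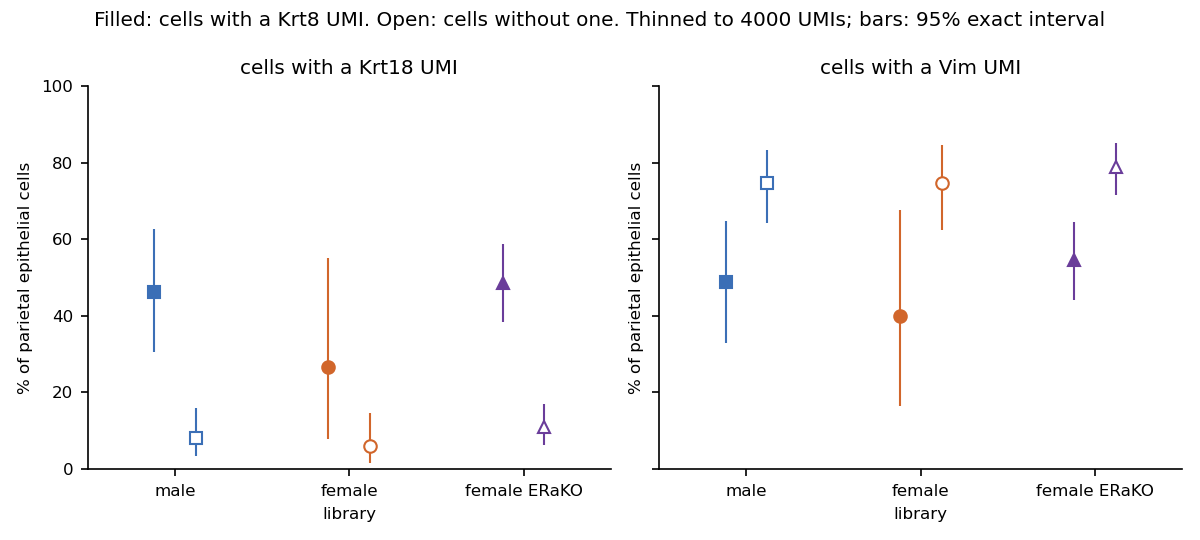
Percentage of parietal epithelial cells with a Krt18 UMI (left) or a Vim UMI (right) in each library, among cells with (filled) and without (open) a Krt8 UMI, after thinning to 4000 UMIs, with 95% exact intervals. Over the class, Krt18 was more frequent and Vim less frequent in Krt8-positive cells of all 3 libraries, and the Vim intervals overlap in every library within cluster 6.

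In the 5 remaining classes 3 to 6 of the 8 members had enough counts to compare. In podocytes Vim was at 1386, 1388 and 1731 CPM. Krt18 was the 1 of 6 podocyte members past the fold in the male library (18 and 9 counts, 1.53 and 0.519 CPM, log2 ratio 0.74), where 1.81% of genes were higher and 1.7% lower. In the female ERaKO library 0 of 5 were, where 2.55% of genes were higher and 3.71% lower.

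Clu was lower in several of these classes. In endothelial cells it was at 80.2 in the female ERaKO and 150.9 CPM in the female library (-0.90, -1.08 to -0.74), the 1 of 4 members past the fold where 3.99% of genes were higher and 4.83% lower. In mesangial cells it was at 18.7, 60.4 and 33.4 CPM, lower in the male (-1.64, -2.50 to -0.90) and the female ERaKO library (-0.83, -1.51 to -0.18), the 1 of 3 members past the fold in each. In the female library 1 cell of 51 held 37.5% of the Clu counts, and without the top cell of each library the ratios were -1.47 and -0.58, the latter within the fold. There 9.31% of genes were higher and 9.72% lower in the male library, and 11.1% and 7.81% in the female ERaKO library. In phagocytes 2 of 3 members were past the fold in each contrast. Clu had 11, 24 and 3 counts, with log2 ratios of -1.06 (male) and -2.05 (female ERaKO). Phagocyte Spp1 had ratios of 0.63 and 1.03, at the level taken as background, and of -0.06 and 0.64 without the top cells. In these cells 5.86% of genes were higher and 20.7% lower in the male library, and 9.9% and 16.2% in the female ERaKO library.

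Vim and Krt8 made up the rest. In smooth muscle and renin cells Vim was at 1056, 762.2 and 1175 CPM, past the fold in the female ERaKO library (0.62, 0.51 to 0.74), where 6.76% of genes were higher and 11.3% lower. None of 3 members was past it in the male library, where 7.0% were higher and 7.58% lower. Krt8 in endothelial cells was the 1 of 5 members past the fold in the male library (1.45, 0.93 to 3.81), where 2.88% of genes were higher and 3.35% lower. It rested on 26 and 6 counts in 22 of 770 male and 6 of 688 female cells, levels near 0 (4.07 and 0.863 CPM).

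A wider list of tubular injury and repair genes was mostly higher in the male proximal tubule class. Of its 32 genes, none of them a member, 26 had enough counts in male and female proximal tubule cells. In the male library 22 were higher and none lower, where 24.8% of all genes were higher and 8.12% lower. The median log2 ratio was 1.30 against 0.25 for all genes. Sox9 had 144 UMIs against 0, at least 36.3-fold higher with 3 counts as the female floor, and Ctgf, a matrix-associated growth factor, 175 against 5 (4.28, 3.48 to 6.37). The 24 male cells of cluster 11c held 99.3% of Sox9 and 63.4% of Ctgf counts of the male class. Parietal cells had both genes in every library, with 90, 62 and 166 UMIs of Sox9 and 601, 434 and 1021 of Ctgf. Without cluster 11c, 9 of 20 were higher and 3 lower, with a median of 0.39, where 21.6% of all genes were higher. In the female ERaKO library 6 of 21 were higher and 1 lower, where 7.71% of all genes were higher and 10.3% lower, with Ctgf at 2.25 and Sox4, a developmental transcription factor, at 1.62. A single cell held 69.2% of the female ERaKO Ctgf counts and 33.9% of its Sox4 counts, and without the top cell of each library the ratios were 1.54 and 1.56. Lgals3, a galectin, was at -0.80, or -0.55 without top cells.

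In parietal cells more genes of the list were lower than higher. In the male library 2 of 28 genes were higher (Lgals3 0.78 and Dcdc2a 0.74) and 6 lower, with a median of -0.11 against 0.08 for all genes, of which 10.3% were higher and 5.41% lower. Ccl2, a monocyte attractant, was at 10.1 against 593.5 CPM (-5.75), and 59.4% of the female counts came from 1 cell. Cd44, a receptor for osteopontin, was at 12.1 against 44.96 CPM (-1.81), with 32.7% of the female counts in 1 cell. Without the top cell of each library these ratios were -5.21 and -1.5. In the female ERaKO library 3 of 29 were higher and 8 lower, where 9.17% and 6.62% of all genes were, and the median was -0.02 against 0.04 for all genes, with Sox4 at 1.0, Myc at 0.87 and S100a6 at -1.69.

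Among 15 receptors and partners of the members, 12 had enough counts in female ERaKO parietal cells. There Cd44 (-1.38) and the gelatinase Mmp2 (-1.30) were lower and none was higher, where 6.62% of all genes were lower and 9.17% higher. In male parietal cells 1 of 12 was higher (Vldlr 0.63) and 2 lower (Cd44 and Mmp2, the latter at -0.60, or -0.38 without the top cell of each library). Of all genes there, 10.3% were higher and 5.41% lower. In male proximal tubule cells 3 of 10 were higher, among them Mmp14 (2.54, on 20 and 1 counts) and Timp2 (2.45), where 24.8% of all genes were higher. Without cluster 11c none of 9 was higher and 2 were lower, where 21.6% of all genes were higher. In female ERaKO proximal tubule cells none of 10 was higher and 2 were lower (Timp3 -0.69 and Vldlr -0.66), where 7.71% of all genes were higher and 10.3% lower. Fatty acid oxidation is the fuel pathway of healthy proximal tubule. Of 13 such genes, 2 were lower in male proximal tubule cells (Ehhadh -2.01 and Acadm -1.48), where 8.12% of all genes were. In female ERaKO cells 2 of 13 were lower (Ppara -0.68 and Ehhadh -0.63, or -0.54 without top cells), where 10.3% of all genes were. None of the 13 was higher in either, where 24.8% and 7.71% of all genes were. Without cluster 11c, 1 of 13 was higher and 2 were lower in male cells, where 21.6% of all genes were higher. In parietal cells 0 of 12 were past the fold in the male library. In the female ERaKO library 1 of 13 was higher (Etfdh 0.69) and 1 lower (Hnf4a -0.67, or -0.15 without top cells), where 9.17% and 6.62% of all genes were.

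Genes that cell dissociation induces differed in some of the same comparisons. Of 12 immediate early genes, 5 were higher and none lower in male parietal cells (Atf3 1.49, Fosb 1.44), where 10.3% of all genes were higher, and their summed level was 16990, 10880 and 14040 CPM. In female ERaKO parietal cells 3 were higher (Atf3 1.02, Fosb 0.99) and 1 lower (Zfp36 -0.59, or -0.44 without the top cell of each library). Of all genes there, 9.17% were higher and 6.62% lower. Of 10 heat shock genes, 4 were higher in male parietal cells (Hspa1a 1.82, Dnajb1 1.08), although 1 cell held 36.4% of the male Dnajb1 counts and 1 cell 56.7% of the female Hspa1a counts. Without the top cell of each library these ratios were 0.58, just short of the fold, and 2.84. Of the 10 heat shock genes, 1 was higher (Hspa1a 0.68, or 1.74 without top cells) and 1 lower (Hspa1b -0.70, or -0.40 without top cells) in female ERaKO parietal cells, near the same 9.17% and 6.62%. In male proximal tubule cells 5 immediate early genes (Nr4a1 2.69, Atf3 1.61) and 1 heat shock gene (Hspb1 2.04) were higher, of 12 and 10, where 24.8% of all genes were higher. Without cluster 11c, none of 11 immediate early genes was higher and 4 were lower, where 21.6% of all genes were higher. In female ERaKO proximal tubule cells 1 of 11 immediate early genes was higher (Ier2 0.63), and 2 of 10 heat shock genes were lower (Hspa1a -1.94, Hspa1b -1.61). Of all genes there, 7.71% were higher and 10.3% lower. The part of the immediate early and heat shock genes in the keratin and Spp1 values was not tested.

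The genes whose levels were most like each member were taken over 21 sums of 7 classes and 3 libraries, which share libraries and depth, and the correlations across these sums are descriptions. For Spp1 they were Pkhd1, Wwc1 and Gna14 (Pearson r 0.973 for each), and Gna14 was also closest to Krt18 (0.962), with Wfdc16 and Tmem171 next (0.953 and 0.948). Krt8 was closest to Cpn1 (0.986), Bdh2 (0.984) and Cbs (0.983), Clu to Smad9 (0.913), Ntn4 and Synm, and Vim to Emp3 (0.967), Myadm and D16Ertd472e. Lcn2 was closest to Rhou (0.922), Slain1 and Elmod1, and Timp1 to Phactr1 (0.876), Selenoi and Cd109. Havcr1, on 7 counts in these classes, was closest to Mcpt2 (0.894), Ube2c and Pgls.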

How the data were processed

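Glomerular cells of 1 male, 1 female and 1 female ERaKO mouse were measured by droplet sequencing of 3′ tags. The authors deposited raw UMI counts per gene and barcode, without normalisation, and STAR 2.7.5a, Cell Ranger 6.1.2 and a genome build, mm10, are named per the submitters' processing notes. The counts came to 44585342, 44942380 and 47522141 UMIs in 4244, 3555 and 3986 barcodes, and the lowest barcode held 4284. The share of barcodes over 25% mitochondrial UMIs was 21.0%, 17.8% and 34.0%. The members and gene lists were chosen with earlier results of these data known.

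Barcodes under 500 genes or over 25% mitochondrial UMIs were dropped, and doublets called by Scrublet in scanpy 1.11.5 (112, 53 and 142) were removed. Cells were clustered (2000 variable genes, 30 components, 15 neighbours, leidenalg 0.10.2 at resolution 1) without the members, the gene lists, mitochondrial genes, Xist, Tsix, Y-linked genes and reporters. A cluster took the name of the best of 19 marker lists with a mean log2 score of at least 1, a lead of 0.75, 3 markers 2-fold up and no more top-10 genes of another list than of its own. Clusters that stayed unnamed or led by less than 1 were split once at resolution 0.5. These naming rules were revised after the clusters were seen. The last of the revisions were made after the members' levels were seen. Clusters 11b and 11f, between parietal and proximal tubule cells, stayed unnamed.

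Counts were summed per class and library and scaled to 1e6 UMIs (CPM). Ratios used 1 CPM as pseudocount, and their 95% intervals are exact conditional Poisson intervals without it. Shares have Clopper-Pearson intervals, and a count of 0 is given the limit of 3 counts. The code was tested on simulated counts. All members are described in each class with 30 cells per library. From each list, up to 2 genes with the highest and 2 with the lowest ratio past the fold were named, except 1 gene that is not reported here. Sox9 in cluster 11c was looked at after its value was seen. For each member the 3 genes with the highest Pearson r of log2(CPM + 1) were named, among genes with at least 100 counts. TMM factors came from edgeR 4.0.16 in R 4.3.3. Positions are those of GENCODE M21, on GRCm38. Keratin genes have processed pseudogenes, and how the authors treated reads shared with them is not given in the sources used here.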

Additional observations from a re-analysis of the deposited data

Results flagged for a closer look

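In proximal tubule cells of the female ERaKO library, Spp1 had a log2 ratio over the female library of 2.08 in cluster 16 and of -0.66 in cluster 22. The 2 clusters differed in direction, and that difference was not tested.

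Barcodes with over 25% mitochondrial UMIs were left out of every class, and 6 members had more than 3 counts there in each library. In the order male, female and female ERaKO, Spp1 was at 1008, 1328 and 848.6 CPM and Clu at 358.1, 396.1 and 157.8 CPM. Most UMIs of these barcodes are mitochondrial, and over the remaining UMIs alone Spp1 was at 2392, 3245 and 2231 CPM and Clu at 849.8, 968.1 and 414.8. Over all their UMIs, Vim was at 48.2, 33.8 and 68.8 CPM, Krt8 at 48.8, 50 and 41.7 CPM, and Krt18 at 26.2, 30.5 and 21.5 CPM. Lcn2 was at 0.349, 1.202 and 0.469 CPM. These 890, 631 and 1355 barcodes have no class, and their Havcr1 counts were 1, 0 and 0.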

How the results depend on the processing

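No paired analysis was possible because each group is 1 library, and for the same reason no replicate could be left out. The alternatives on clusters 16, 22, 11c, 11b and 11f were added after seeing the data, as were clusters 6 and 11a apart and, for list genes and the other classes, ratios without the top cell of each library. Keeping only clusters with 10 cells of each library gave no proximal tubule value. Over all counts of members past the fold, 105 alternative values stayed within 1.5 times the count reported and 31 did not. Of single members, 282 values stayed within counting error or the share's interval, 127 moved and 5 reversed. Male over female in proximal tubule cells (3 higher, 1 lower) became 0 higher and 3 lower with libraries clustered separately, 2 lower with no count minimum or with doublets kept, and 0 lower without cluster 11c. With separate clustering Clu (-0.50), Krt8 (-1.05) and Krt18 (-0.79) reversed there and Lcn2 (-0.23) in male parietal cells, and Krt8 (-0.16) reversed without cluster 11c. Female ERaKO over female in proximal tubule cells (0 and 0) became 1 higher with at most 10% or 50% mitochondrial UMIs, doublets kept, the top cell of each gene removed, clusters 11b and 11f added or cluster 11c left out, 2 higher at resolution 0.5, and 3 higher in cluster 16 only. It became 1 lower with no minimum, at most 10% mitochondrial UMIs, cluster 22 only or cluster 11c left out. In parietal cells, male over female (3 and 1) became 0 higher with separate clustering. Its lower count became 2 with no minimum and 0 with at most 50% mitochondrial UMIs, resolution 2 or thinning. Female ERaKO over female (3 and 2) became 1 higher with separate clustering. Its lower count became 0 without top cells or with thinning, and 1 with a pseudocount of 10 CPM, a minimum of 100 counts, at most 10% mitochondrial UMIs, doublets kept, cell-by-cell classes or only clusters with 10 cells of each library. The 24 male cells of cluster 11c were unnamed when libraries were clustered separately, and the cause of the other changes was not tested. Depth limits Havcr1, Timp1 and Lcn2, which had few counts.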
